A study of Mus musculus with 36 samples.

Results

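The comparison described here is that of the LacZ control cells between the arrays labelled tumor and those labelled spleen. It rests on 6 of the 36 arrays of the series, 3 under each tissue label, chosen by transduction and tissue label with no measured value used. The cells were mouse OT-I CD8 T cells, which carry a T cell receptor for a peptide of ovalbumin. They had been transduced with a short hairpin RNA (shRNA) against LacZ, a bacterial gene with no counterpart in the mouse, and transferred into mice that bore B16, a melanoma cell line. Afterwards the T cells were purified either out of the tumor or out of the spleen, and total RNA was hybridised to Affymetrix 3′ arrays. The other 30 arrays hold cells with a hairpin against Ppp2r2d, Egr2, Ptpn2, Arhgap5 or Alk, again 3 arrays for each tissue label, and serve here as 5 further comparisons of the same kind. Every group, control included, had thus been transduced and transferred. The labels give neither the time after transfer nor the strain, age or number of the recipient mice, and nothing in them says that the 3 arrays of a group stem from separate animals, so p-values measure the spread between arrays.

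A CD8 T cell that meets its antigen divides, loads granules with perforin and granzymes, and secretes cytokines and chemokines. Receptors such as PD-1, which is encoded by Pdcd1, are induced by repeated antigen contact and dampen the cell's signals. A resting or memory T cell has low rates of division and biosynthesis, keeps the transcription factor Klf2, and through Klf2 the receptor S1pr1, with which it leaves lymphoid organs and recirculates.

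The tissue labels stand against the marker genes in these 6 arrays and in those of the 5 hairpins. Melanocyte genes, which B16 cells express, were lower under the label tumor than under the label spleen. Tyrp1, an enzyme of melanin synthesis, read -2.71, -2.29 and -2.65 in the LacZ arrays labelled tumor, against 5.18, 5.67 and 4.63 in those labelled spleen. Of 18 melanocyte genes measured, 14 were lower in the arrays labelled tumor and 0 were higher, and the mean level of the 18 lay between -1.78 and -1.31 in arrays labelled tumor and between 1.59 and 2.21 in arrays labelled spleen. In the 5 hairpins Tyrp1 differed by -7.64 to -7.19, and the median difference of the melanocyte genes was -4.16 to -2.74. The labels were kept as deposited, so every direction below is that of the labels, and whether they were exchanged was not tested. T cell markers were high under both labels, as described below.

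All values are on the deposited log2 scale, where a difference of 1 is a 2-fold change, and the centring of that scale is not given in the sources used here. Over the 18193 genes tested, the mean of the 36 arrays had a median of 0.36, a 25th percentile of -1.86 and a 10th percentile of -2.58. No detection calls were among the values used, so the size of a difference that ends near the lower end is not exact. Array medians over all probe sets lay between -0.414 and -0.308 in the arrays labelled tumor and between -0.417 and -0.31 in the arrays labelled spleen. Correlations across genes were 0.95 to 0.983 among the 3 arrays labelled tumor, 0.965 to 0.974 among the 3 labelled spleen and 0.914 to 0.936 between the labels. Array 2 labelled spleen stood apart in its lowest value, -1.449. On Gapdh the 3′ probe set exceeded the 5′ one by 0.905 to 1.143 in arrays labelled tumor and by 0.829 to 1.386 in arrays labelled spleen, and on beta actin by 0.411 to 0.776 and by 0.62 to 1.488 under the same labels. The part of the 3′ and 5′ values in the results was not tested, and counts without array 2 labelled spleen are given beside the results they touch.

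Differences are labelled tumor minus labelled spleen, given with the SE of a limma fit over all 36 arrays, and n = 3 arrays a group. A gene was called when its p, adjusted over all 18193 genes, was below 0.05. By this rule 4589 genes differed, or 25.2% of those tested. Of all genes 1148, or 6.31%, were called higher in the arrays labelled tumor and 3441, or 18.9%, lower. The 3 and 3 arrays did not overlap for 1235 genes with the arrays labelled tumor above and for 3714 with them below, together 27.2% of the genes. The median difference over all genes was -0.48, and the shares rest on the scale: after quantile normalization 2296 genes were called higher and 3270 lower, 41.3% of the calls were higher against 25% on the deposited scale, and the median was -0.06. Counts of gene lists below are therefore read beside these figures, and where quantile normalization changed either count of a list by 3 or more both are given. One array weighs on them as well: without array 2 labelled spleen 1204 genes were called higher and 2195 lower, with a median of -0.14.

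**Figure D1:**
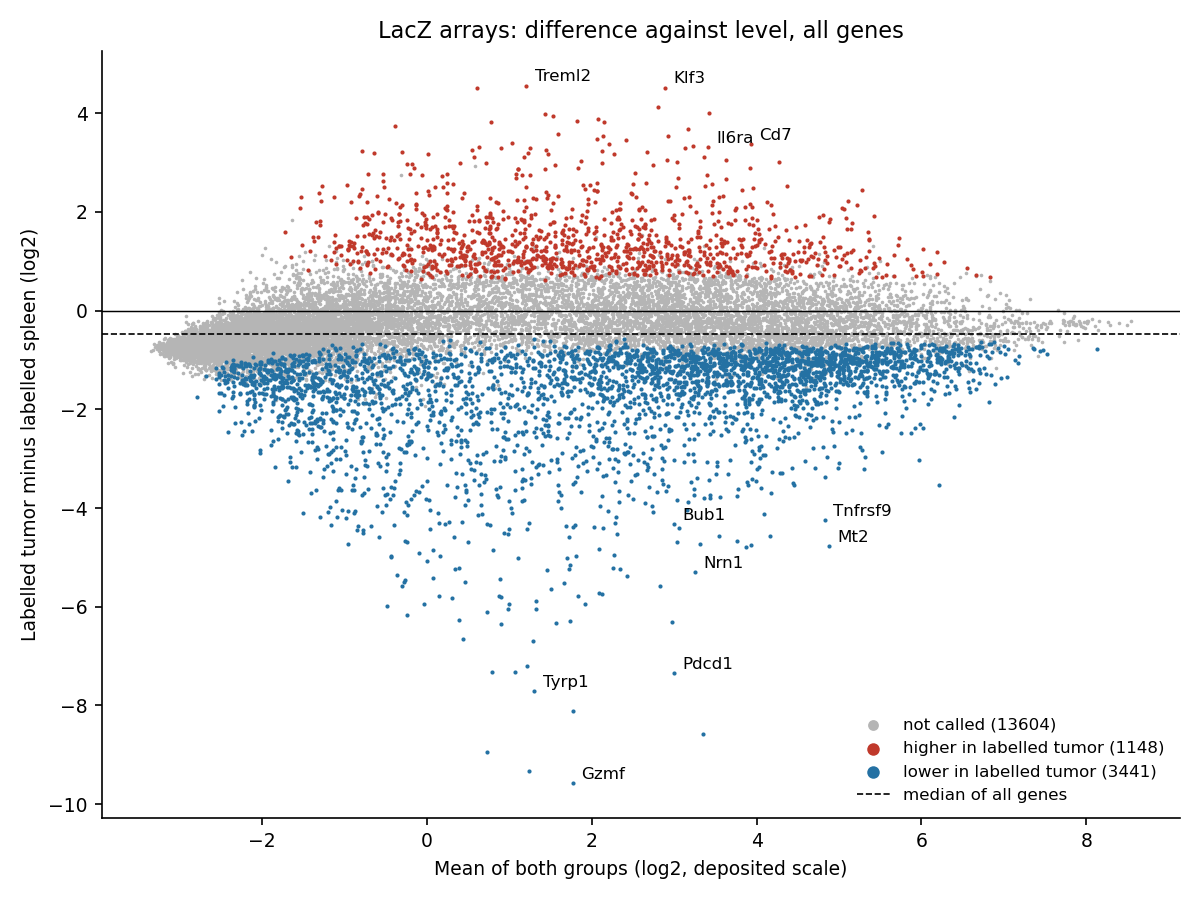
Each point is 1 of the 18193 genes, with its mean level over both LacZ groups (log2) on the x axis and the difference, labelled tumor minus labelled spleen (log2), on the y axis. Colours mark the 1148 genes called higher and the 3441 called lower, and the dashed line is the median difference of -0.48. The falls reach further from 0 than the rises.

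Among the genes named, the largest falls belonged to the granzyme cluster, serine proteases of the killing granule. Gzmf read -3.24, -2.64 and -3.16 in the arrays labelled tumor, against 6.40, 7.0 and 6.28 in those labelled spleen, a difference of -9.57 ± 0.40 (adjusted p = 9.84e-18). Gzmc read -0.53, -1.67 and -0.61 in the arrays labelled tumor, against 7.56, 8.04 and 7.31 in those labelled spleen, and differed by -8.58 ± 0.32 (adjusted p = 1.2e-18). Gzme and Gzmd differed by -9.32 ± 0.50 and -8.95 ± 0.52, and Gzmg by -6.65 ± 0.46. No array of either label overlapped with one of the other for these 5 genes, which was a condition of their choice among the largest falls. The granzymes C to G are alike in sequence, and whether a probe set also takes up the RNA of a neighbour was not tested. In the arrays labelled tumor the 4 genes other than Gzmc lay at -2.64 or lower, below the 10th percentile of the genes' means, so these sizes are the least exact.

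Of 11 granzyme and perforin genes 8 fell and 1 rose, with a median difference of -3.53. Outside the cluster, and named here after their values were seen, Gzmb and Prf1 had clear levels under both labels. Gzmb, the main granzyme of activated CD8 cells, read 5.03, 3.99 and 4.32 in the arrays labelled tumor, against 8.08, 8.31 and 7.53 in those labelled spleen, and fell by 3.53 ± 0.31 (adjusted p = 2.4e-10). Prf1, the pore former perforin, read 2.57, 2.02 and 2.60 in the arrays labelled tumor, against 5.43, 6.01 and 4.96 in those labelled spleen, a difference of -3.07 ± 0.27. Neither pair of groups overlapped. Gzma did not pass the test, with 6.54, 6.10 and 5.72 in arrays labelled tumor, against 6.55, 7.0 and 6.24 in arrays labelled spleen (-0.48 ± 0.39, adjusted p = 0.374). The single granzyme that rose was Gzmm, named for its preference for methionine: it read 4.25, 3.48 and 4.34 in the arrays labelled tumor, against 0.30, -0.37 and 0.50 in those labelled spleen (3.88 ± 0.30, adjusted p = 1.76e-11).

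Inhibitors of granule proteases fell as well. Of 7 serpins measured 5 fell and 0 rose, and the median was -2.73. Serpinb9b read -2.86, -1.61 and -2.38 in the arrays labelled tumor, against 6.10, 6.25 and 5.17 in those labelled spleen, a difference of -8.12 ± 0.39. Its relative Serpinb9, which inhibits granzyme B and protects the cell from its own granules, read 2.96, 1.99 and 3.08 in arrays labelled tumor, against 6.46, 6.91 and 5.29 in arrays labelled spleen, a difference of -3.54 ± 0.38 (adjusted p = 1.49e-08). Serpinb1a and Serpinb6a differed by -4.14 ± 0.38 and -2.73 ± 0.31. Among 14 genes of granule release and death ligands 4 fell and 1 rose, with a median of -0.43, near that of all genes. The largest of these, Stx11, a syntaxin needed for granule fusion, fell by 4.41 ± 0.31, whereas the death ligand Fasl fell by 1.44 ± 0.36.

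**Figure D2:**
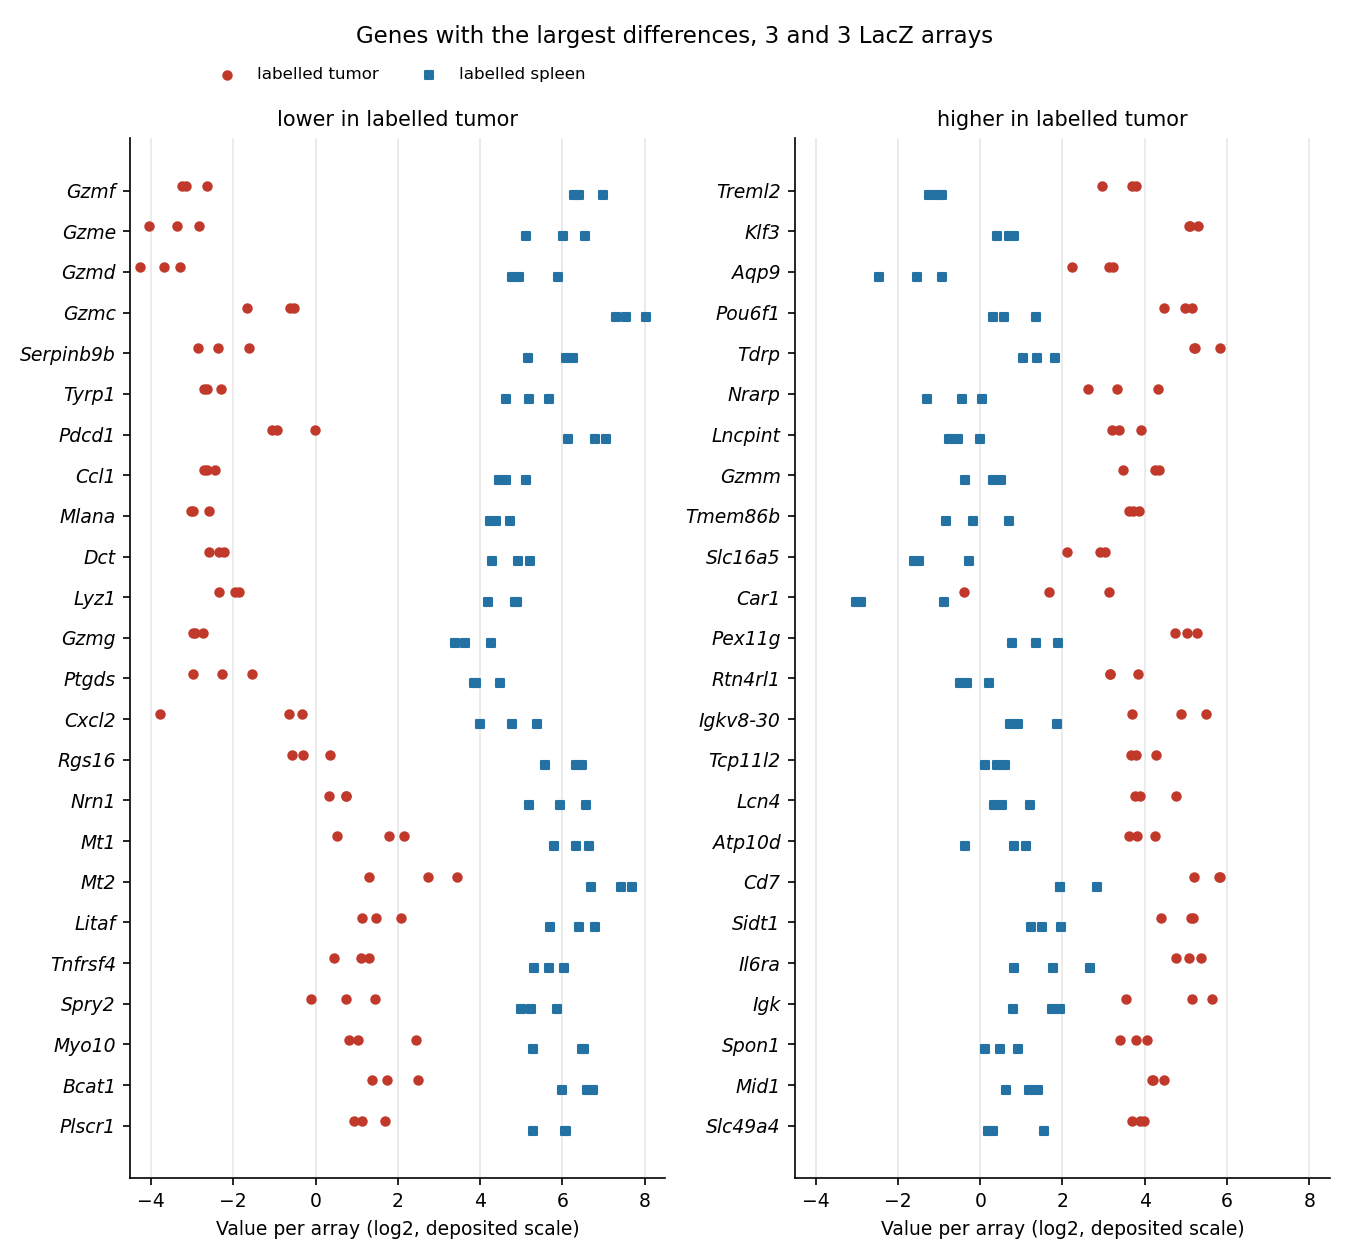
Deposited log2 values of the 24 named genes that fell (left panel) and the 24 that rose (right panel) in each of the 6 LacZ arrays, 1 gene a row. Circles are the 3 arrays labelled tumor and squares the 3 labelled spleen. Within each gene shown the 2 labels do not overlap, which was a condition of the choice.

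Inhibitory receptors were mostly lower in the arrays labelled tumor. Of 14 measured 8 fell and 2 rose (8 and 4 after quantile normalization), with a median of -1.36. Pdcd1 read -0.02, -1.05 and -0.94 in the arrays labelled tumor, against 6.80, 7.06 and 6.15 in those labelled spleen, a difference of -7.34 ± 0.30 (adjusted p = 9.84e-18). Lag3, a receptor for MHC class II, read -0.12, -1.38 and -0.84 in arrays labelled tumor, against 4.90, 5.42 and 4.54 in arrays labelled spleen (-5.73 ± 0.28, adjusted p = 3.31e-16). Havcr2, which encodes TIM-3, read 0.42, -0.51 and 0.25 in arrays labelled tumor, against 5.69, 6.08 and 5.10 in arrays labelled spleen (-5.57 ± 0.32). For these 3 receptors the arrays of the 2 labels lay far apart, with no overlap, which for Pdcd1 was a condition of its choice. Ctla4, which competes with CD28 for its ligands, fell less, and was high under both labels: 5.20, 6.00 and 6.33 in those labelled tumor and 7.27, 7.62 and 6.98 in those labelled spleen (-1.45 ± 0.34, adjusted p = 0.00148).

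Costimulatory molecules were divided. Of 22 measured 11 fell and 2 rose (11 and 6 after quantile normalization), with a median of -0.53, near that of all genes on the deposited scale. The falls were led by receptors of the TNF family that activated T cells display. Tnfrsf4, or OX40, read 1.10, 0.45 and 1.30 in the arrays labelled tumor, against 5.68, 6.05 and 5.31 in those labelled spleen (-4.73 ± 0.26, adjusted p = 3.36e-15). Tnfrsf9, or 4-1BB, read 2.96, 2.15 and 3.01 in arrays labelled tumor, against 7.28, 7.33 and 6.25 in arrays labelled spleen (-4.25 ± 0.35). Cd80, a ligand of CD28 and CTLA-4, and Cd70, the ligand of CD27, differed by -4.52 ± 0.35 and -3.45 ± 0.34. In neither case did the labels overlap.

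The receptor for antigen itself changed little. Of 12 genes of the T cell receptor complex and its coreceptors 1 fell and 0 rose, with a median of -0.08, while quantile normalization gave 0 falls, 4 rises and a median of 0.35. The gene called, Cd8a, read 6.40, 6.25 and 6.58 in arrays labelled tumor, against 7.08, 7.46 and 6.59 in arrays labelled spleen, and its adjusted p of 0.0477 was lost in 15 of 20 other settings. Among 25 genes of signal transduction downstream of the receptor 6 rose and 4 fell (median 0.10), but 16 rose and 3 fell after quantile normalization. Pag1, an adaptor that holds the inhibitory kinase Csk at the membrane, read 5.21, 4.45 and 5.12 in arrays labelled tumor, against 3.21, 3.11 and 2.95 in arrays labelled spleen (1.84 ± 0.25). Txk, a Tec family kinase, rose by 1.72 ± 0.29, and Ubash3b and Nfatc1 differed by -1.55 ± 0.28 and -1.17 ± 0.28. Ubash3b encodes a phosphatase that restrains receptor signals, and Nfatc1 a transcription factor driven by calcium.

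Transcription factors of effector and exhausted cells fell in 16 of 30 cases and rose in 1 (17 and 4 after quantile normalization), with a median of -1.12. Prdm1, which encodes Blimp-1, a factor of terminal effector cells, read 0.16, 0.00 and 0.23 in the arrays labelled tumor, against 3.78, 4.66 and 3.80 in those labelled spleen (-3.95 ± 0.34, adjusted p = 1.82e-10). Zeb2, a repressor that acts with T-bet, read -1.15, -0.88 and -2.17 in arrays labelled tumor, against 3.38, 4.36 and 3.12 in arrays labelled spleen (-5.02 ± 0.60). Irf8 and Litaf differed by -4.11 ± 0.27 and -4.74 ± 0.30. None of these 4 overlapped between labels, which for Irf8 and Litaf was a condition of their choice. The member that rose on the deposited scale was Eomes, a T-box factor of effector and memory CD8 cells, named after its values were seen: it read 5.27, 4.77 and 5.52 in arrays labelled tumor, against 3.81, 3.68 and 3.14 in arrays labelled spleen (1.64 ± 0.26, adjusted p = 1.25e-05).

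Factors of quiescence and memory moved the other way. Of 31 measured 8 rose and 1 fell with a median of 0.35, and 21 rose and 1 fell after quantile normalization. Klf3, a Krüppel-like repressor, read 5.07, 5.09 and 5.30 in the arrays labelled tumor, against 0.40, 0.82 and 0.69 in those labelled spleen (4.52 ± 0.33, adjusted p = 3.71e-12). Klf2 read 5.77, 6.21 and 6.90 in arrays labelled tumor, against 4.71, 4.30 and 3.43 in arrays labelled spleen (2.15 ± 0.34, adjusted p = 9.58e-06). Smad3 and Smad7, which carry and restrain the signal of TGF-beta, rose by 1.94 ± 0.24 and 2.07 ± 0.47. No label overlapped for these 4 genes, which for Klf3 was a condition of its choice.

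Genes listed under recirculation and lymph node entry rose alongside. Of 23 genes 8 rose and 0 fell, with a median of 0.23. S1pr1 read 3.88, 3.47 and 4.05 in the arrays labelled tumor, against 0.65, 0.29 and 0.02 in those labelled spleen (3.48 ± 0.49, adjusted p = 1.46e-06). Gpr183, a receptor for oxysterols that guides lymphocytes within lymphoid tissue, read 4.77, 5.26 and 5.72 in arrays labelled tumor, against 2.97, 3.42 and 2.92 in arrays labelled spleen (2.15 ± 0.33). Treml2 had the largest rise of any named gene, at 3.80, 2.97 and 3.70 in arrays labelled tumor, against -1.04, -0.92 and -1.24 in arrays labelled spleen (4.56 ± 0.31, adjusted p = 6.54e-13). Treml2 encodes a receptor of lymphoid and myeloid cells, and is counted in this list. Sidt1, a membrane protein of the SID-1 family that is counted there too, rose by 3.33 ± 0.26. Treml2 and Sidt1 are both among the 8 rises. Members of the list were chosen with earlier results of these data known, so its count rests in part on that choice.

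Receptors of tissue homing and residency were mixed, with 9 falls and 6 rises among 22 and a median of -0.55. Cxcr6, a chemokine receptor of T cells resident in tissue, read 1.93, -0.51 and 0.69 in the arrays labelled tumor, against 4.57, 5.17 and 4.05 in those labelled spleen (-3.89 ± 0.42, adjusted p = 1.32e-08). Itgav, the alpha V integrin, read 4.67, 3.69 and 3.92 in arrays labelled tumor, against 7.05, 7.42 and 6.39 in arrays labelled spleen (-2.86 ± 0.28). Ccr6 and Cx3cr1 differed by -2.97 ± 0.39 and -2.25 ± 0.34. Among 18 receptors shared with natural killer cells 9 fell and 3 rose (median -1.24). Klrk1, the activating receptor NKG2D, read 4.10, 3.28 and 3.33 in arrays labelled tumor, against 6.10, 6.85 and 6.00 in arrays labelled spleen (-2.75 ± 0.29), and Klra5 and Fcer1g fell by 3.94 ± 0.33 and 5.24 ± 0.35. Cd7, an immunoglobulin-like receptor of T and natural killer cells, rose: 5.80, 5.21 and 5.83 in arrays labelled tumor, against 1.93, 2.84 and 1.95 in arrays labelled spleen (3.38 ± 0.28, adjusted p = 9.62e-11).

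Secreted factors were among the groups with the widest change. Of 16 chemokines 14 fell and 0 rose, and the median was -3.56. Ccl1 read -2.71, -2.64 and -2.45 in the arrays labelled tumor, against 4.62, 5.12 and 4.45 in those labelled spleen (-7.33 ± 0.41, adjusted p = 9.38e-15). Cxcl2, an attractant of neutrophils, fell by 6.32 ± 0.65, and Ccl9 and Ccl12, which myeloid cells also make, by 6.28 ± 0.42 and 5.98 ± 0.49. Ccl3, an attractant that activated CD8 cells secrete and named after its values were seen, read 4.53, 4.00 and 4.85 in arrays labelled tumor, against 7.45, 7.87 and 7.12 in arrays labelled spleen (-3.02 ± 0.34). Macrophage markers moved the same way in these arrays, with 17 of 22 lower in the arrays labelled tumor, and their part in the chemokine values was not tested. Each of these 5 chemokines was lower in every array labelled tumor than in any labelled spleen. For Ccl1 and Cxcl2 this was a condition of their choice.

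Cytokine genes fell in 9 of 20 cases and rose in 3, with a median of -1.13. Il10, which restrains inflammation, read -3.59, -2.83 and -2.85 in the arrays labelled tumor, against 2.54, 2.86 and 2.02 in those labelled spleen (-5.57 ± 0.47, adjusted p = 1.14e-10). Il3, a growth factor of myeloid cells, fell by 6.16 ± 0.51, the T cell growth factor Il2 by 3.94 ± 0.42, and Csf2, which encodes GM-CSF, by 2.54 ± 0.36. Ifng, the interferon of CD8 effector cells, was named after its values were seen, and read 5.66, 5.79 and 5.95 in arrays labelled tumor, against 7.38, 7.73 and 6.97 in arrays labelled spleen (-1.56 ± 0.25, adjusted p = 1.7e-05). Of 28 cytokine receptors 9 rose and 9 fell, for a median of 0.03 (12 and 8 after quantile normalization). Il2ra, the high-affinity chain of the IL-2 receptor, read 1.39, 0.72 and 1.25 in arrays labelled tumor, against 4.82, 5.50 and 4.56 in arrays labelled spleen (-3.84 ± 0.33). Il6ra, the IL-6 receptor of naive and memory cells, read 5.37, 4.77 and 5.07 in arrays labelled tumor, against 2.67, 0.82 and 1.78 in arrays labelled spleen (3.31 ± 0.33). The 2 receptors thus ran in opposite directions with no overlap of labels in either, which for Il6ra was a condition of its choice.

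Feedback genes of T cell signalling went both ways. Among 16 dual specificity phosphatases and Sproutys, which restrain the MAP kinases, 8 fell and 3 rose with a median of -1.25 (8 and 6 after quantile normalization). Spry2 read -0.12, 0.74 and 1.44 in the arrays labelled tumor, against 5.23, 5.88 and 5.00 in those labelled spleen (-4.68 ± 0.44, adjusted p = 7.34e-10), and Spry1 fell by 4.32 ± 0.36, Dusp14 by 3.74 ± 0.37 and Dusp4 by 3.14 ± 0.35. Of 12 members of the SOCS and CISH group, which restrain cytokine signals, 3 rose and 1 fell (median 0.25; 5 and 2 after quantile normalization). Socs3, induced by IL-6, read 5.04, 4.79 and 5.31 in arrays labelled tumor, against 3.36, 2.42 and 2.02 in arrays labelled spleen (2.45 ± 0.34), while Cish, a target of STAT5, fell by 1.74 ± 0.38. Rgs16, which shortens signals of chemokine receptors, fell by 6.30 ± 0.30, at -0.56, -0.31 and 0.36 in arrays labelled tumor, against 6.34, 6.48 and 5.57 in arrays labelled spleen. Of 19 anergy ligases and lipid kinases 4 fell and 3 rose (median 0.24, and 4 and 7 after quantile normalization). Rnf128, the ligase GRAIL, fell by 3.11 ± 0.39, and Pik3ip1, an inhibitor of PI3 kinase, rose by 3.05 ± 0.29.

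Immediate early genes of the AP-1 family rose in 7 of 21 cases and fell in 1, with a median of 0.60, and in 13 cases with 1 fall after quantile normalization. Fosb read 5.60, 6.08 and 6.55 in the arrays labelled tumor, against 3.82, 4.62 and 3.55 in those labelled spleen (2.08 ± 0.30, adjusted p = 2.79e-06). Maff, a small Maf protein, read 3.86, 4.66 and 5.11 in arrays labelled tumor, against 1.11, 2.34 and 1.13 in arrays labelled spleen (3.01 ± 0.48), and Ier2 rose by 2.22 ± 0.34. Ier3 was the member that fell, by 2.92 ± 0.34. Of 17 Notch genes 4 rose and 1 fell (median 0.19; 7 and 1 after quantile normalization). Nrarp, a target and inhibitor of Notch, read 3.32, 2.63 and 4.33 in arrays labelled tumor, against -1.30, -0.44 and 0.05 in arrays labelled spleen (3.99 ± 0.39). Rbpj, the DNA-binding partner of Notch, fell by 2.61 ± 0.26.

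Genes of cell division were lower in the arrays labelled tumor almost throughout. Of 45 genes of DNA replication and S phase 42 fell and 0 rose, with a median of -2.07, and of 50 genes of mitosis and the kinetochore 47 fell and 0 rose, with a median of -2.95. Of 24 repair genes 23 fell, of 28 genes of nucleotide synthesis 23 fell, and of 23 cyclins and cyclin dependent kinases 11 fell, with 0 rises in each on the deposited scale. Promoters are shown for 4 of these genes because the 2 groups are known for different elements near their starts: E2F sites in S phase genes, and the cell cycle genes homology region, or CHR, in mitotic ones. Sequences are those of RefSeq on the GRCm38.p6 assembly, the 250 bases before the annotated start, 5′ to 3′ on the strand of the gene. The genes are the 2 called members of each list with the largest difference among those whose promoter holds the element, and capitals mark the matched letters on either strand. Cdc6 (chr11:98907901-98908150, plus strand) loads the replicative helicase, of which Mcm5 (chr8:75109259-75109508, plus strand) is a subunit, and capitals mark the E2F site:
Cdc6: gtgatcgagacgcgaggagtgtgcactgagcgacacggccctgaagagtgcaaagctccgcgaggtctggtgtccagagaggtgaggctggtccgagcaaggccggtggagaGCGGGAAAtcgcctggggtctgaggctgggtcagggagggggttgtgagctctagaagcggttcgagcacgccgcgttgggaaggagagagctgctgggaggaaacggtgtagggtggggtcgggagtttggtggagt
Mcm5: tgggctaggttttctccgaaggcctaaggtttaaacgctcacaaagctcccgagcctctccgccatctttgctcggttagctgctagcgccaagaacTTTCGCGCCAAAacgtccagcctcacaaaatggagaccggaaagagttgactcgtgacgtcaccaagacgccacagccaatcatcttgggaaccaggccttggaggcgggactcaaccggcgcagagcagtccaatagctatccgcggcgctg
Kif11 (chr19:37376132-37376381, plus strand), a motor of the mitotic spindle, and Cdca5 (chr19:6084847-6085096, plus strand), which holds sister chromatids together, carry the CHR in capitals:
Kif11: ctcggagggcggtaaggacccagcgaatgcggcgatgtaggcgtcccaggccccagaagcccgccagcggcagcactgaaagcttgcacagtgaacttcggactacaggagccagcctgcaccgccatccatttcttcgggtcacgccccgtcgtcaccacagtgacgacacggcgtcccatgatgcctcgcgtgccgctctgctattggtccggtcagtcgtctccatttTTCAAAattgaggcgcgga
Cdca5: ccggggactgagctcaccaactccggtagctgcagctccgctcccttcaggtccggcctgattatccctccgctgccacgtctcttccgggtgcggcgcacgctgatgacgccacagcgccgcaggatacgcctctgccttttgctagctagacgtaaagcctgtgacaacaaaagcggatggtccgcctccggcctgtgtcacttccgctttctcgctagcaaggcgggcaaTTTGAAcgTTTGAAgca
The E2F match begins 138 bases before the start of Cdc6, and 2 overlapping ones lie 149 and 153 bases before that of Mcm5. The CHR match begins 19 bases before the start of Kif11 and 9 and 17 bases before that of Cdca5.

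The E2F letters searched, on both strands, were TTTCCCGC, TTTGGCGC, TTTCGCGC and TTTGCCGC. They were found in 10 of the 37 replication genes with a promoter, or 27.0%. Of all 27025 genes with a promoter, called all promoters below, 2.2% held them, and of the measured genes among these 3.1%. The CHR, searched as TTTGAA or TTCGAA, was in 15 of 43 mitotic promoters, or 34.9%. It was in 19.6% of all promoters and in 15.7% of the promoters of measured genes. The CCAAT box was in 29 of the 43, or 67.4%, against 37.5% and 39.4%. A match describes these letters in this window and is no evidence of a bound factor.

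The 4 genes of these promoters had the following levels. Cdc6 read 0.99, -1.10 and 0.62 in the arrays labelled tumor, against 4.28, 4.89 and 3.50 in those labelled spleen (-4.05 ± 0.45, adjusted p = 2.05e-08). Mcm5 read 3.20, 1.84 and 2.32 in arrays labelled tumor, against 6.06, 6.24 and 4.54 in arrays labelled spleen (-3.16 ± 0.39). In both, array 2 was the lowest of those labelled tumor and the highest of those labelled spleen. Kif11 read 1.49, -0.20 and 0.43 in arrays labelled tumor, against 4.29, 4.76 and 3.87 in arrays labelled spleen (-3.73 ± 0.35, adjusted p = 8.32e-10). Cdca5 read 1.66, 0.62 and 1.05 in arrays labelled tumor, against 4.95, 4.73 and 4.19 in arrays labelled spleen (-3.51 ± 0.32). None of the 4 overlapped between labels.

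Other genes of the cycle gave the same picture. Bub1, a kinase of the spindle checkpoint, read 1.45, 0.31 and 0.76 in the arrays labelled tumor, against 5.25, 5.73 and 4.50 in those labelled spleen (-4.32 ± 0.36, adjusted p = 9.62e-11). Cdk1, the kinase that drives mitosis, read 2.52, 1.87 and 2.06 in arrays labelled tumor, against 5.55, 6.08 and 5.25 in arrays labelled spleen (-3.48 ± 0.33), and its partners Ccna2 and Ccnb2 fell by 3.29 ± 0.42 and 3.40 ± 0.39. Brca1, a repair gene, fell by 3.32 ± 0.33, and Tk1, the S phase thymidine kinase, by 3.44 ± 0.40. Inhibitors of the cycle fell in 7 of 20 cases and rose in 2, with a median of -0.29 (7 and 6 after quantile normalization). Cdkn3, itself expressed in dividing cells, fell by 3.38 ± 0.35 and Cdkn1a, or p21, by 2.25 ± 0.27, while Gadd45a rose by 1.76 ± 0.31. Dividing B16 cells and dividing T cells both express these genes, and their parts in the values were not tested. In bulk RNA, fewer cells of a type and less RNA per cell cannot be told apart.

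**Figure D3:**
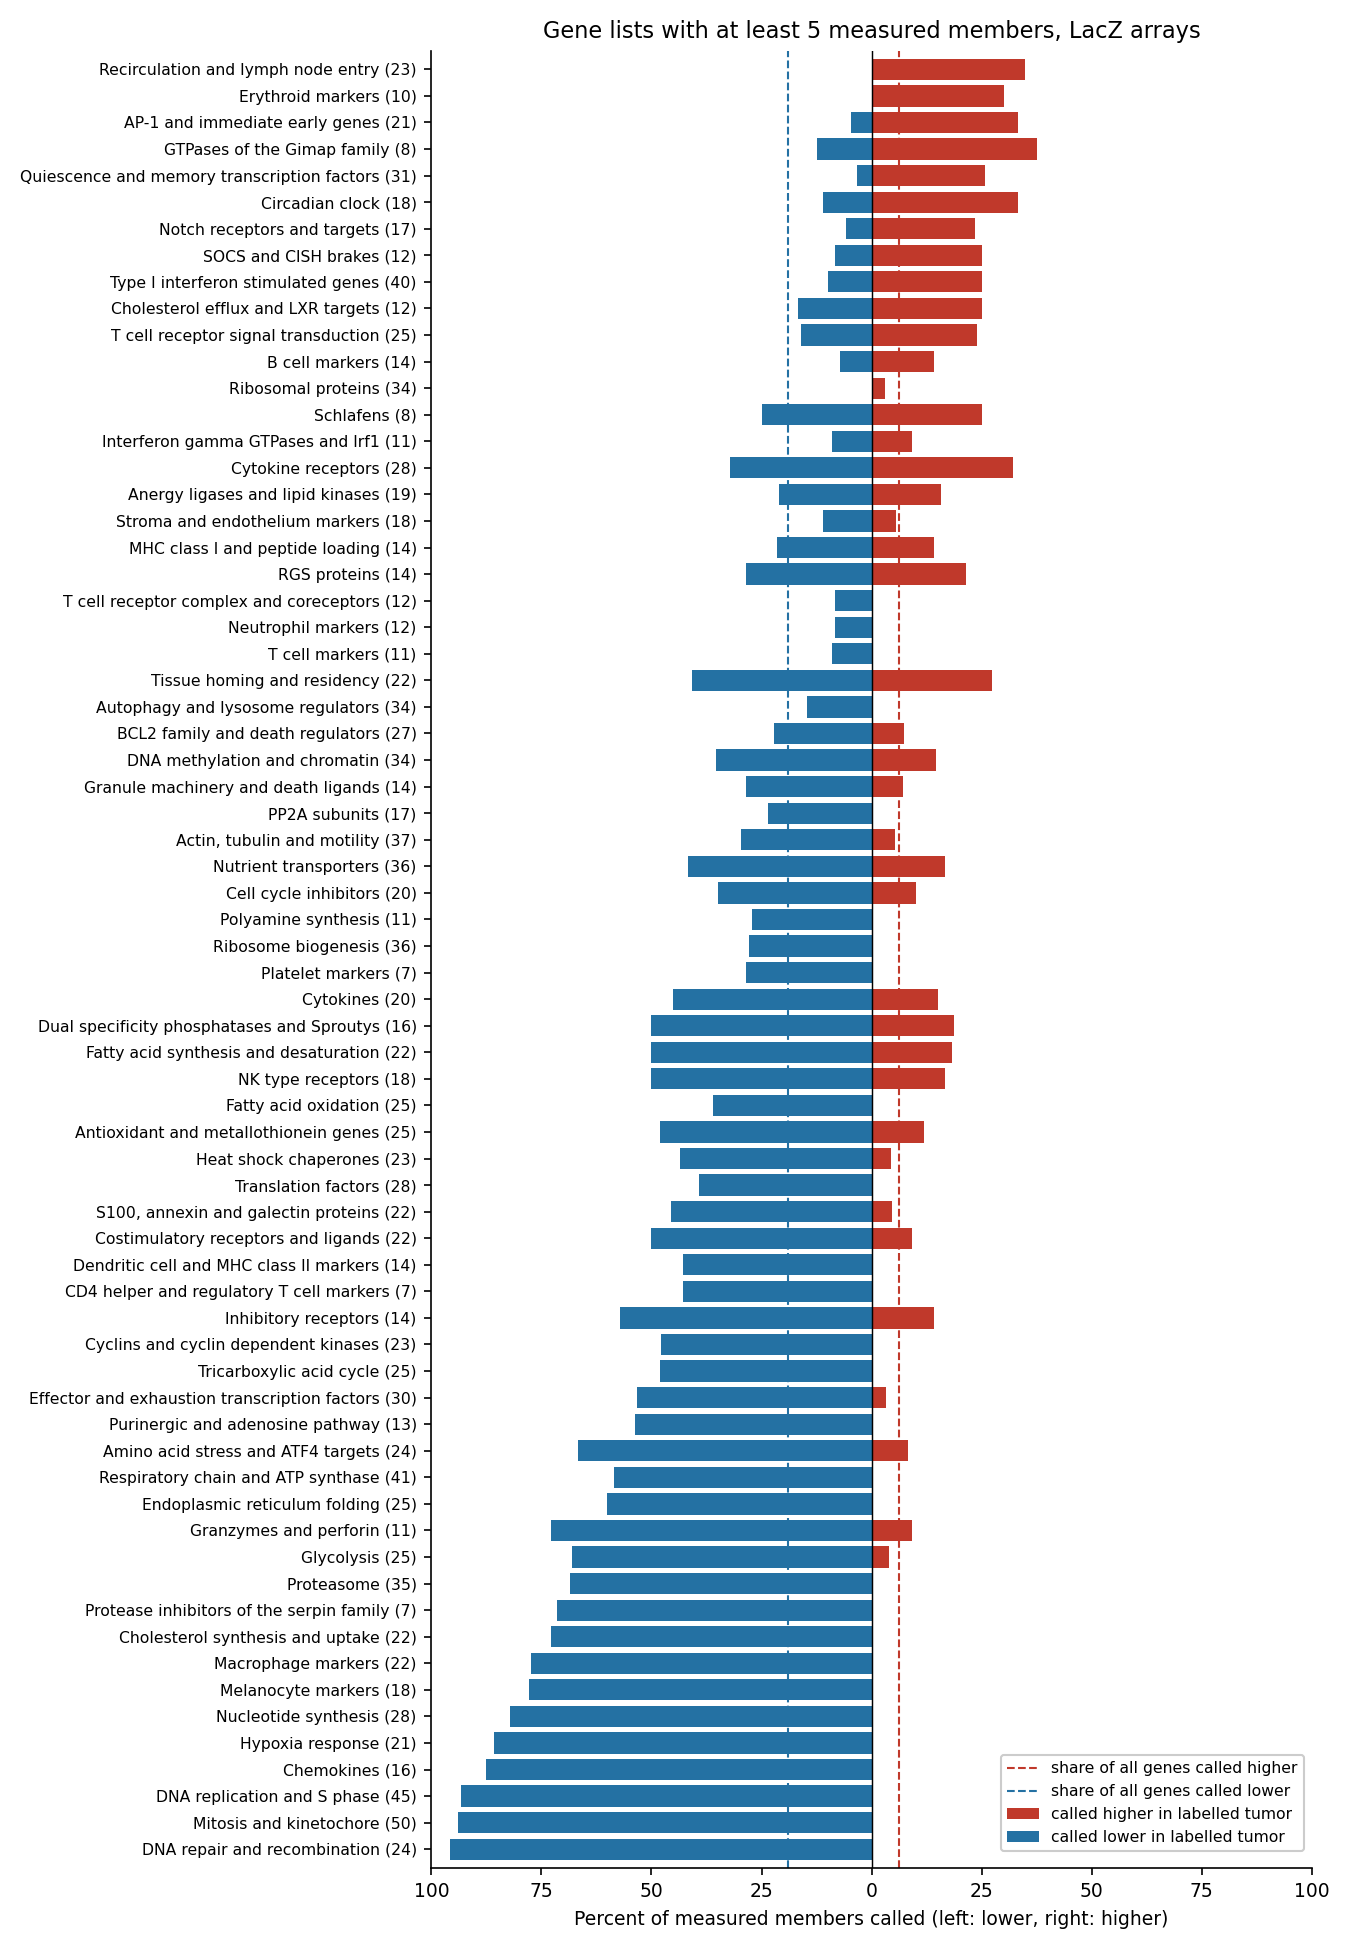
Percent of the measured members of each gene list with at least 5 members that were called higher (to the right) or lower (to the left) in the LacZ arrays labelled tumor than in those labelled spleen. Dashed lines are the same shares over all genes, 6.31% and 18.9%. Mitosis, with 47 of 50 lower, and DNA replication, with 42 of 45 lower, stand near the left end, and the recirculation list, with 8 of 23 higher and 0 lower, stands at the top.

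Genes of energy metabolism were lower in the arrays labelled tumor, led by those of glycolysis and of the hypoxia response. Of 25 glycolytic genes 17 fell and 1 rose (median -1.41), and of 21 hypoxia genes 18 fell and 0 rose (median -1.55). In the hypoxia response, the factor HIF binds short elements with the core RCGTG. Only TACGTG and GACGTG were searched, and other RCGTG letters are left in lower case. The 2 promoters shown hold a match. They are those of the called members with the largest differences among those with only 1 promoter entry and a match. Car9 (chr4:43506776-43507025, plus strand), a carbonic anhydrase of the cell surface, and Ero1a (chr14:45318573-45318822, minus strand), an oxidase of disulfide formation, carry it in capitals:
Car9: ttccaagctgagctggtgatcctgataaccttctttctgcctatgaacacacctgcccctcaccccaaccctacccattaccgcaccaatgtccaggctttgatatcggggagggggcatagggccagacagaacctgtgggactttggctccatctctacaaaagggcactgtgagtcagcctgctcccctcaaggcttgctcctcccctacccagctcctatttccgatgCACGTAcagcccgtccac
Ero1a: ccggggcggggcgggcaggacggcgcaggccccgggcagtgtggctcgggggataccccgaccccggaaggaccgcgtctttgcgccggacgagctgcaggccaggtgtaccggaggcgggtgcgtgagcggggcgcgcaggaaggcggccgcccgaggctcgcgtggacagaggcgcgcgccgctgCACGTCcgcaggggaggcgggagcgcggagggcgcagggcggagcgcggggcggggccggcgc
The match begins 18 bases before the start of Car9 and 63 bases before that of Ero1a. The letters TACGTG or GACGTG, on either strand, were in 10 of 19 hypoxia promoters, or 52.6%. They were in 8.7% of all promoters and in 10.8% of the promoters of measured genes.

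Car9 read -2.19, -1.96 and -1.81 in the arrays labelled tumor, against 1.55, 1.69 and 0.72 in those labelled spleen (-3.31 ± 0.36, adjusted p = 1.83e-08). Ero1a read 4.82, 4.21 and 5.07 in arrays labelled tumor, against 7.06, 7.22 and 6.25 in arrays labelled spleen (-2.14 ± 0.30). Ak4, a mitochondrial adenylate kinase, had the largest fall of the list, at -0.47, 0.03 and -0.34 in arrays labelled tumor, against 5.06, 5.75 and 4.52 in arrays labelled spleen (-5.37 ± 0.28, adjusted p = 2.43e-15). Bnip3, which marks mitochondria for removal, fell by 3.62 ± 0.24, and Ndrg1 by 3.73 ± 0.32. Slc16a3, the exporter of lactate, read -0.31, -1.61 and -0.31 in arrays labelled tumor, against 5.50, 5.17 and 4.33 in arrays labelled spleen (-5.74 ± 0.36). Tpi1, an enzyme of glycolysis, read 3.99, 3.22 and 3.90 in arrays labelled tumor, against 7.06, 7.25 and 6.41 in arrays labelled spleen (-3.20 ± 0.28). Labels overlapped for none of these genes. Of 36 nutrient transporters 15 fell and 6 rose (13 and 8 after quantile normalization), with a median of -0.80. The largest rises were those of Aqp9, a channel for glycerol (4.51 ± 0.34), and Slc16a5 (3.82 ± 0.32).

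Genes of sterol synthesis were mostly lower in the arrays labelled tumor, and genes of sterol efflux were mixed. Of 22 genes of cholesterol synthesis and uptake 16 fell and 0 rose (median -1.29). Idi1, an isomerase of the mevalonate pathway, read 2.97, 2.23 and 2.72 in the arrays labelled tumor, against 5.50, 6.08 and 5.10 in those labelled spleen (-2.92 ± 0.30, adjusted p = 5.23e-09), and Cyp51 fell by 2.52 ± 0.31. Among 12 genes of cholesterol efflux, which the receptor LXR induces, 3 rose and 2 fell (median 0.11; 5 and 3 after quantile normalization). Abcg1, an exporter of sterols, read 5.39, 5.00 and 5.74 in arrays labelled tumor, against 1.90, 3.35 and 2.15 in arrays labelled spleen (2.90 ± 0.35, adjusted p = 1.34e-07). Mylip, which marks the LDL receptor for degradation, read 3.20, 2.78 and 3.16 in arrays labelled tumor, against 0.30, -0.35 and -0.32 in arrays labelled spleen (3.17 ± 0.30), and the exporter Abca1 rose by 2.77 ± 0.40. Of 22 genes of fatty acid synthesis 11 fell and 4 rose, among them Fabp5, a carrier of fatty acids, which fell by 3.19 ± 0.31, and the elongase Elovl7, which rose by 2.74 ± 0.26.

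Stress genes of protein folding fell in part. Of 25 genes of endoplasmic reticulum folding 15 fell and 0 rose, with a median of -1.11. Many of these are known for the endoplasmic reticulum stress element, bound by ATF6 with NF-Y. Promoters of the 2 called members with the largest differences among those with only 1 promoter entry and a match are shown with it in capitals. Creld2 (chr15:88819396-88819645, plus strand) is a secreted folding factor and Pdia6 (chr12:17266339-17266588, plus strand) a disulfide isomerase:
Creld2: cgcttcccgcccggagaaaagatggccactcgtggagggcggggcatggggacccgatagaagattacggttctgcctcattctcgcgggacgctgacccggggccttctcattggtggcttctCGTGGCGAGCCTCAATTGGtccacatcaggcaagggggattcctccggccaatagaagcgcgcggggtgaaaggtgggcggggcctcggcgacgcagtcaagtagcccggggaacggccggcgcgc
Pdia6: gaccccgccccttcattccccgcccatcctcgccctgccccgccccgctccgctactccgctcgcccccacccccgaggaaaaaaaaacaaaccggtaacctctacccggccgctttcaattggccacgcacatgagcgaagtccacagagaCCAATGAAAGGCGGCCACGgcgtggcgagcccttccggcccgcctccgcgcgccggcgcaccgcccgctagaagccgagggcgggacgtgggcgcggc
The match begins 126 bases before the start of Creld2 and 98 bases before that of Pdia6. The element, CCAAT and CCACG with 9 bases of any kind between them on either strand, was in 9 of 21 promoters of the list, or 42.9%, against 0.1% of all promoters, and it contains a CCAAT box.

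Creld2 read 3.44, 2.64 and 3.12 in the arrays labelled tumor, against 5.18, 5.33 and 4.70 in those labelled spleen (-2.01 ± 0.27, adjusted p = 9.18e-07). Pdia6 read 3.15, 2.82 and 2.99 in arrays labelled tumor, against 4.73, 5.09 and 4.32 in arrays labelled spleen (-1.72 ± 0.26). Sdf2l1 and Atf6 each fell by 2.30, with SEs of 0.27 and 0.26. Of 24 targets of amino acid stress under ATF4 16 fell and 2 rose (median -1.11), with Asns, asparagine synthetase, at 0.90, 0.40 and 1.32 in arrays labelled tumor, against 4.14, 4.64 and 3.80 in arrays labelled spleen (-3.32 ± 0.34). None of these genes overlapped between labels. Heat shock chaperones fell in 10 of 23 cases and rose in 1, but only 2 fell and 3 rose after quantile normalization, so the list's count rests on the scale. Hspa1b, an inducible HSP70, overlapped between labels, at 6.45, 4.68 and 7.15 in arrays labelled tumor, against 7.44, 7.77 and 6.65 in arrays labelled spleen.

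Metallothioneins, which bind zinc, were among the large falls measured away from the lower end. Mt1 read 1.79, 0.52 and 2.15 in the arrays labelled tumor, against 6.34, 6.65 and 5.81 in those labelled spleen (-4.78 ± 0.36, adjusted p = 6.33e-12). Mt2 read 2.74, 1.30 and 3.45 in arrays labelled tumor, against 7.42, 7.70 and 6.70 in arrays labelled spleen (-4.77 ± 0.56). Both arrays numbered 2 were at the extremes, lowest under the label tumor and highest under the label spleen. Of the 25 antioxidant and metallothionein genes 12 fell and 3 rose (median -0.75), and Hmox1, heme oxygenase, fell by 3.17 ± 0.38. The metal response core, TGCACNC or TGCGCNC, was in 8 of 22 of their promoters, or 36.4%, against 23.8% of all promoters and 30.6% of the promoters of measured genes.

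Housekeeping machinery shifted less. Of 35 proteasome genes 24 fell and 0 rose with a median of -0.90, and after quantile normalization 15 fell and 2 rose. Of 41 genes of the respiratory chain 24 fell (median -0.84), and 15 after quantile normalization. Cycs, cytochrome c, read 5.06, 4.74 and 5.28 in the arrays labelled tumor, against 6.62, 6.97 and 6.13 in those labelled spleen (-1.55 ± 0.25, adjusted p = 1.84e-05). Of 34 ribosomal proteins 1 rose and 0 fell, with a median of -0.25, and 4 rose and 0 fell after quantile normalization, with a median of 0.04. The gene called on the deposited scale, Rps27, overlapped between labels. Translation factors fell in 11 of 28 cases (7 after quantile normalization, with 2 rises), with Eif4e, which binds the cap of messenger RNA, down by 1.89 ± 0.27.

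**Figure D4:**
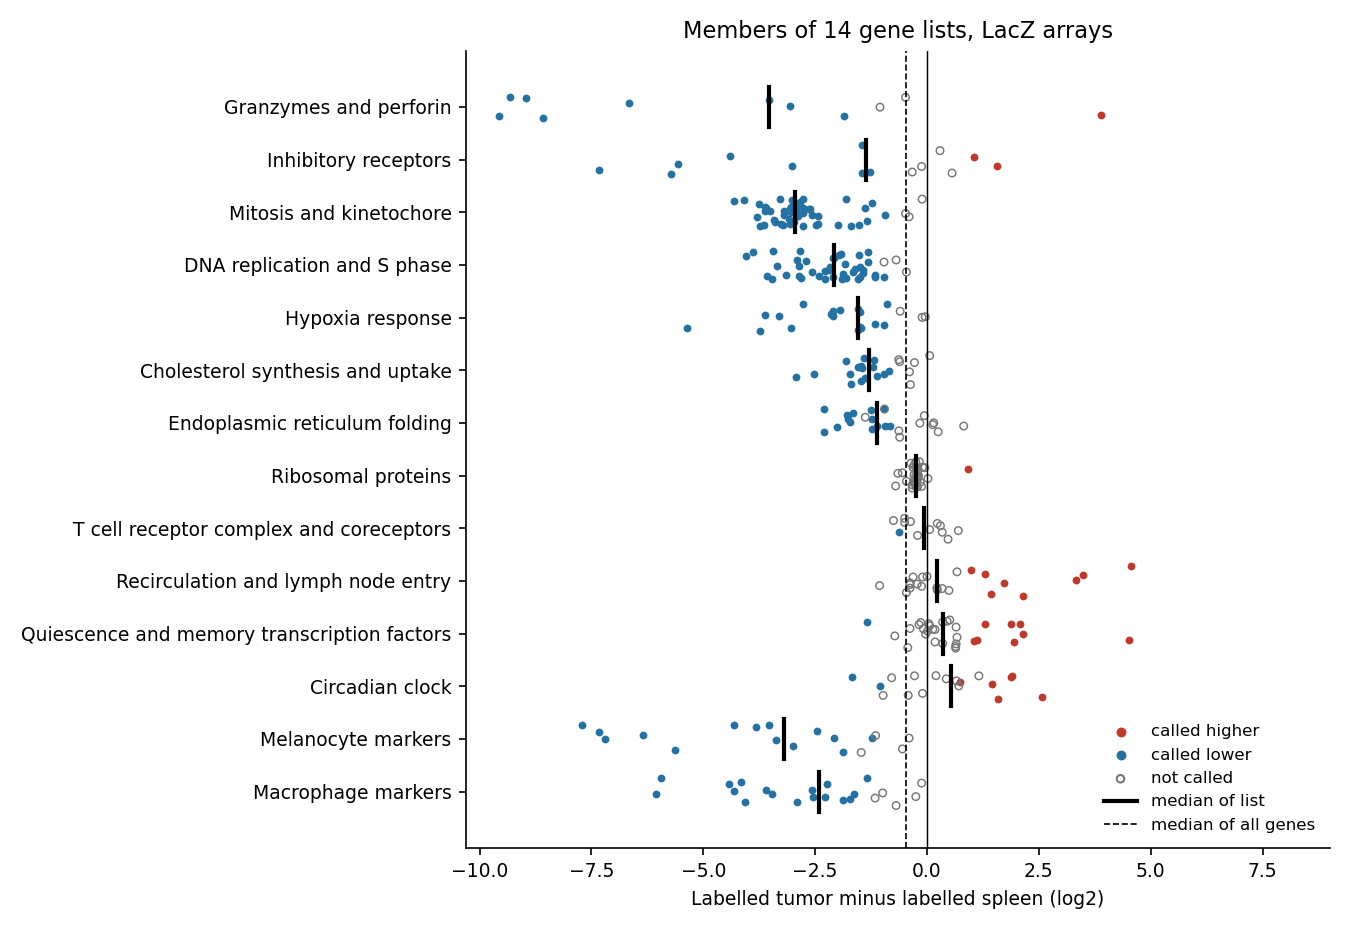
Difference in LacZ, labelled tumor minus labelled spleen (log2), of each measured member of 14 gene lists, 1 point a gene, with called genes coloured and a bar at each list's median. The dashed line is the median of all genes, -0.48. Nearly all mitosis and replication genes lie left of it, ribosomal proteins lie close to 0, and most of the quiescence list lies right of it.

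Type I interferon genes and clock genes rose more often than they fell. Of 40 type I interferon genes 10 rose and 4 fell (median 0.10; 18 and 4 after quantile normalization). Ifit1, which binds foreign RNA, read 2.93, 2.57 and 2.86 in the arrays labelled tumor, against 1.27, 0.99 and 1.10 in those labelled spleen (1.67 ± 0.35, adjusted p = 0.000423), and Ifi204 fell by 3.64 ± 0.46. Of 11 interferon gamma genes 1 rose and 1 fell, with a median of -0.13. Irf1, which rose, read 6.30, 6.39 and 6.71 in arrays labelled tumor, against 5.07, 5.53 and 4.36 in arrays labelled spleen (1.48 ± 0.40). Gbp3 fell by 1.49 ± 0.33. Neither Ifit1 nor Irf1 overlapped between labels. Of 18 clock genes 6 rose and 2 fell, with a median of 0.55: Nr1d2, a repressor of the clock, read 4.46, 4.65 and 5.12 in arrays labelled tumor, against 1.80, 2.68 and 2.04 in arrays labelled spleen (2.57 ± 0.51), and Bhlhe40 fell by 1.67 ± 0.33.

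Markers of macrophages and of MHC class II cells were lower in the arrays labelled tumor, while those of T cells were high under both labels. Of 11 T cell markers 1 fell and 0 rose, while 0 fell and 5 rose after quantile normalization (medians -0.07 and 0.45), and their mean level was 5.78 to 6.17 in arrays labelled tumor and 5.56 to 6.50 in arrays labelled spleen. Of 22 macrophage markers 17 fell and 0 rose, with a mean level of -1.81 to -1.29 in arrays labelled tumor and 0.88 to 1.22 in arrays labelled spleen. C1qb, a chain of complement C1q, read -0.79, -2.18 and -3.16 in arrays labelled tumor, against 4.24, 4.39 and 3.39 in arrays labelled spleen (-6.05 ± 0.52), and lysozyme, Lyz2, fell by 5.94 ± 0.41. Of 14 dendritic cell and MHC class II markers 6 fell (mean level -0.32 to -0.08 labelled tumor, 1.32 to 2.15 labelled spleen), with H2-Aa down by 5.24 ± 0.65. Of 12 neutrophil markers 1 fell, of 7 platelet markers 2, of 18 stroma markers 2 with 1 rise, and of 7 markers of CD4 and regulatory T cells 3. Erythroid markers rose in 3 of 10 cases and fell in 0: Car1, a carbonic anhydrase of red cells, read 1.68, -0.39 and 3.14 in arrays labelled tumor, against -2.89, -0.88 and -3.02 in arrays labelled spleen (3.74 ± 0.89, adjusted p = 0.00174). B cell markers rose in 2 of 14 cases and fell in 1, and the light chain segment Igkv8-30 read 3.70, 4.89 and 5.50 in arrays labelled tumor, against 1.86, 0.91 and 0.72 in arrays labelled spleen (3.54 ± 0.96, adjusted p = 0.00594). How much of any gene's difference came with these other cells was not tested.

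Several genes that belong to no list were among the extremes. Pou6f1, a POU domain factor, read 4.98, 4.47 and 5.15 in the arrays labelled tumor, against 1.35, 0.30 and 0.58 in those labelled spleen (4.12 ± 0.34, adjusted p = 7.32e-11). Tdrp read 5.22, 5.21 and 5.83 in arrays labelled tumor, against 1.05, 1.82 and 1.38 in arrays labelled spleen (4.01 ± 0.28), Pex11g, a peroxisomal protein, rose by 3.68 ± 0.31, and the noncoding RNA Lncpint by 3.94 ± 0.29. On the other side Nrn1, or neuritin, read 0.73, 0.74 and 0.34 in arrays labelled tumor, against 5.94, 6.58 and 5.19 in arrays labelled spleen (-5.30 ± 0.29, adjusted p = 3.34e-15). Bcat1, which degrades branched-chain amino acids, fell by 4.57 ± 0.26 and Plscr1, a scramblase, by 4.56 ± 0.30. Labels did not overlap for any of these genes, which was a condition of their choice.

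The genes that the 5 other hairpins target did not share 1 pattern in the LacZ arrays. Ppp2r2d, which encodes a B subunit of PP2A, read 4.12, 3.86 and 4.40 in arrays labelled tumor, against 5.51, 5.16 and 4.31 in arrays labelled spleen (-0.86 ± 0.42, adjusted p = 0.134). Egr2, a factor of anergy, read 3.86, 3.43 and 4.72 in arrays labelled tumor, against 5.43, 5.64 and 4.40 in arrays labelled spleen (-1.15 ± 0.55, adjusted p = 0.124). Both overlapped between labels, as did Ptpn2, a tyrosine phosphatase (0.18 ± 0.28, adjusted p = 0.653), and the receptor kinase Alk (-0.85 ± 0.48, adjusted p = 0.196). Arhgap5, a GTPase-activating protein, rose: 2.01, 1.36 and 1.17 in arrays labelled tumor, against -0.71, -0.42 and -0.15 in arrays labelled spleen (1.94 ± 0.35, adjusted p = 6.56e-05).

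The 5 hairpin comparisons share no array with the LacZ one. Of the 1148 genes called higher in LacZ, 927 were also above 0 in all 5 hairpins, or 80.7%, against 24.1% of all genes. Of the 3441 called lower, 2970 were below 0 in all 5, or 86.3%, against 29.3% of all genes. The correlation of the differences across genes, as a description over 18193 genes that are not independent, was 0.82 with Ppp2r2d, 0.75 with Egr2, 0.67 with Arhgap5, 0.59 with Alk and 0.51 with Ptpn2. Pdcd1 differed by -7.34 in LacZ and by -7.94 to -7.08 in the hairpins, Klf3 by 4.52 in LacZ and by 4.19 to 6.41, and Bub1 by -4.32 in LacZ and by -5.94 to -3.14. In each of these 3 the LacZ value lay within the range of the 5 hairpins.

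Where LacZ and the hairpins parted was tested as the LacZ difference minus the mean difference of the 5 hairpins. The LacZ arrays labelled spleen stood apart from the hairpin arrays of that label: their best correlation with another array was 0.968 to 0.975, against 0.988 to 0.993, their Gapdh 3′ excess 0.829 to 1.386, against 0.246 to 0.828, and that of beta actin 0.62 to 1.488, against 0.338 to 0.877. The part of this in the test was not tested. By adjusted p 2683 genes, or 14.7%, were called, 307 with LacZ above, or 1.69%, and 2376 with LacZ below, or 13.1%. This count rests on single arrays and on dim genes: it was 25 without array 1 labelled tumor, 283 without array 2 labelled spleen, 409 without array 3 labelled tumor, 4719 without array 2 labelled tumor and 4794 without array 3 labelled spleen, 621 when dim genes were left out and 488 after quantile normalization, with 303 above and 185 below. Of the 292 genes named in all, 43 differed, 18 above and 25 below. These include the 8 genes each way that were named for their size in this test, so for them the call is no separate result.

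Among the named granzymes Gzmm lay above and 4 members of the cluster below. Gzmm rose by 3.88 in LacZ and by 0.83 to 2.87 in the hairpins, a difference of 2.14 ± 0.33 between them (adjusted p = 0.0022). Its mean level labelled spleen was 0.14 in LacZ, against 1.93 to 3.23 in the hairpins. Labelled tumor it was 4.02, within the 3.82 to 5.14 of the hairpins. Gzmf differed by -9.57 in LacZ, against -8.75 to -5.68 in the hairpins, Gzme by -9.32 against -8.66 to -5.87, and Gzmd by -8.95 against -8.58 to -5.42. Gzmg differed by -6.65 in LacZ, within the -6.89 to -3.10 of the hairpins though below their mean, and Gzmc was not called. Of the 16 largest differences from the hairpins, 12 lost their call without array 1 labelled tumor and 4 kept it, Gzmm among them (adjusted p = 0.0214), and this was not run for the other named genes. Il10 fell by 5.57 in LacZ, against falls of 1.84 to 3.85 in the hairpins. Dtx1, a ligase of the Notch pathway, rose less in LacZ, at 3.72, 2.68 and 3.36 in arrays labelled tumor, against 0.27, 2.37 and -0.20 in arrays labelled spleen, by 2.44 against 4.30 to 6.55 in the hairpins. Apoe and Arg1, both also macrophage genes, fell less in LacZ, by 1.64 against 2.63 to 5.10 and by 2.05 against 2.58 to 6.21.

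**Figure D5:**
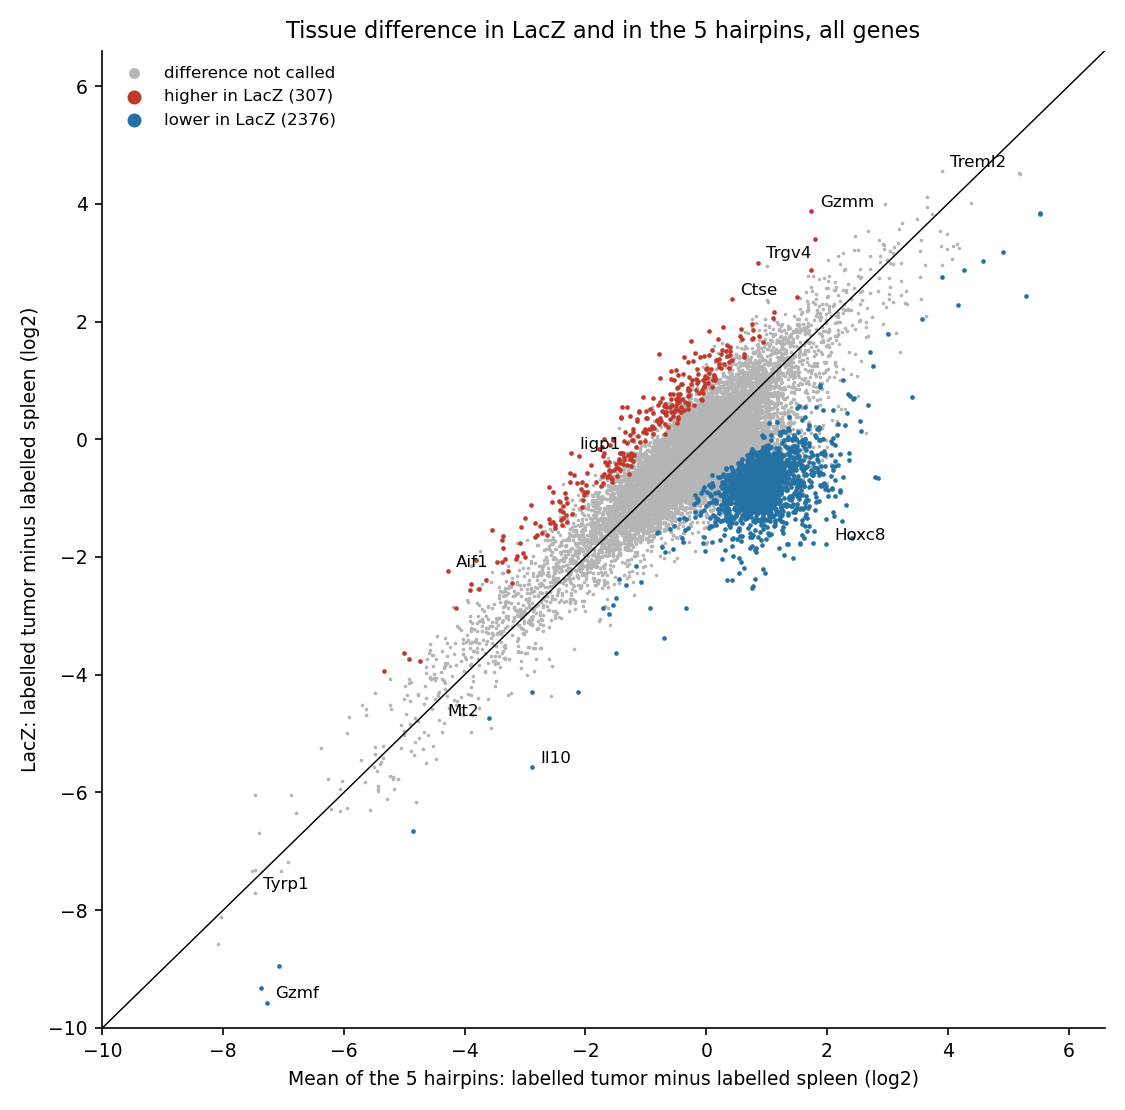
Each point is a gene, with the mean difference of the 5 hairpins (log2, labelled tumor minus labelled spleen) on the x axis and the LacZ difference on the y axis. Colours mark the 307 genes with LacZ above the hairpins and the 2376 with LacZ below by the test of the difference. Large differences lie near the diagonal, which marks equal values, and most of the genes with LacZ below form a cloud above 0 for the hairpins and below 0 for LacZ.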

How the data were processed

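RNA of 36 arrays was analysed, of which the 6 LacZ arrays are the subject. Per the labels, total RNA was taken up in Trizol, amplified in 1 cycle and labelled with biotin. RMA, which subtracts background and condenses a set's probes to 1 value, is named in the submitters' processing notes, with no version or settings given in the sources used here. The authors' deposited values are on a log2 scale, as their range shows, per probe set, with centring unstated, so levels of different genes are not set against each other. Precision is limited by the number of arrays.

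The labels gave groups and replicate numbers. Arrays of the same number were not treated as pairs, since their residual correlations over 18 pairs were -0.24 to 0.24, with 4 above 0.1. For the 3 LacZ pairs they were -0.08 to 0.24, with 2 above 0.1, so pairing of the LacZ arrays is not settled. Of 45101 probe sets 64 were controls, 34945 carried 1 gene symbol, 932 several and 9160 none in the platform annotation used here. A gene took the probe set whose mean over all arrays was highest, leaving 18193 genes, 9010 with several probe sets and 18145 named in the RefSeq table of GRCm38.p6.

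With limma 3.58.1 in R 4.3.3 (tables read by data.table, version 1.17.8), lmFit took 1 coefficient for each of 12 groups over 36 arrays (24 residual degrees of freedom, 6.75 prior ones from eBayes). Both comparisons, LacZ labelled tumor minus labelled spleen and that difference minus the mean of the 5 hairpins, were two-sided, with p adjusted by Benjamini and Hochberg over 18193 genes at a threshold of 0.05. Promoters were searched and figures drawn with Python 3.11.15, pandas 2.3.3, numpy 2.4.6 and matplotlib 3.10.9. On simulated data with 50 genes changed at each of 0.5, 1, 2 and 4 log2 units, the LacZ comparison recovered 0, 10, 42 and 48. The difference from the hairpins recovered 0, 8, 39 and 48. Among the genes left unchanged 6 and 2 were called. The simulated noise was independent between genes and arrays, with 1 spread per gene. These counts therefore do not cover effects of single arrays, on which the real counts depend.

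Gene lists numbered 70, with 1433 of 1577 genes measured. Members and lists were chosen with earlier results of these data known, so lists are described by counts and medians without a test. Genes named were the 15 largest rises and falls without overlap of arrays, the same again among genes whose lower mean lay above the median of all, up to 4 called members of a list, the 5 targets and the 8 largest differences from the hairpins each way, leaving out predicted genes and clones. For genes named as largest rises or falls, the lack of overlap was a condition of the choice and is no separate result. Other settings are given in the closing section.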

Additional observations from a re-analysis of the deposited data

Results flagged for a closer look

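Each gene here was singled out because its LacZ difference, labelled tumor minus labelled spleen, differed from the mean of the 5 hairpins by limma's test of that difference. The values are the LacZ difference minus that mean, in log2 units. The count of such genes fell to 25 of 18193 without LacZ array 1 labelled tumor, so single arrays weigh on the values.

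Genes of many functions stood on both sides. Above the hairpins were Gzmm at 2.14, the kinase Txk at 0.94, Gimap5 at 1.18, the cytokine Csf2 at 1.22, the adaptor Sh2b3 at 1.07, Dusp14 at 1.18 and the receptor segment Trgv4 at 2.14. Below them were Gzmf at -2.31, Gzme at -1.95, Gzmd at -1.87, Gzmg at -1.79, Il10 at -2.68, Ccr6 at -1.36, the integrin Itgav at -1.15, Litaf at -1.15, Cish at -1.36, Rgs5 at -1.93, Dtx1 at -2.86, Bhlhe40 at -1.27 and Tmem86b at -1.67.

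Arg1 at 1.76, Apoe at 1.72, Aif1 at 2.04 and Pf4 at 1.40 lay above, having fallen less in LacZ. Of 22 macrophage markers 4 lay above and 0 below, and of 12 neutrophil markers 0 lay above and 5 below. Of 14 B cell markers 0 lay above and 6 below. Over all genes 1.69% lay above and 13.1% below. The neutrophil markers were dim, with mean levels of -2.76 to -0.84 in the LacZ arrays, and 3 of the 12 passed the filter on dim genes. Over all genes that filter cut the calls below from 2376 to 427. Its effect on the counts of these markers was not tested. Ifit1 at 1.93 and Iigp1 at 2.00 lay above too, where 3 of 40 type I interferon genes and 2 of 11 interferon gamma genes did so, as did the kinetochore gene Nuf2 at 0.98, Ctse at 1.96, Gpr137b at 1.94, Myl10 at 2.23 and Ryr1 at 2.00. Ctse was not particular to LacZ: it rose by 2.38 in LacZ and by 2.01 with the Alk hairpin, against -0.08 to 0.2 with the others. Its mean level labelled spleen was -0.94 in LacZ and -0.51 with Alk, against 5.12 to 5.89 with the other hairpins. Below were Mmp9 at -1.06, the B cell receptor Fcer2a at -2.34, the matrix gene Lum at -2.23 and the hairpin target Alk at -2.02.

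The largest values below were of 8 genes whose LacZ arrays overlapped between labels. They were Hoxc8 at -3.76, Kalrn at -3.64, Chrdl1 at -3.52, Hoxd10 at -3.44, Dmp1 at -3.42, Hoxc13 at -3.34, Ntrk3 at -3.34 and Arhgef15 at -3.31. Hoxc8 read -3.02, 1.53 and -1.34 in arrays labelled tumor, against 1.35, -0.41 and 1.58 in arrays labelled spleen. For each of the 8, array 1 was the lowest labelled tumor and array 2 the highest. In arrays labelled spleen the LacZ mean of each of the 8 lay above that of every hairpin. Hoxd10, for example, was at -0.09 in LacZ, against -3.1 to -2.76. In arrays labelled tumor the LacZ mean of each lay within the range of the hairpins.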

How the results depend on the processing

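The count of 4589 genes called between the LacZ arrays stayed within 1.5 times in every setting run but 1: the 6 LacZ arrays alone gave 1862, in a fit with fewer samples. Leaving out each replicate in turn gave 3399 to 5361. The share of calls that were higher, 25% on the deposited scale, was 41.3% after quantile normalization, 38.8% after cyclic loess and with each array's median set to 0, 34.6% with array weights and 35.2% without the 3 arrays whose lowest value lies above -1.5, which include LacZ array 2 labelled spleen. The test of LacZ against the hairpins, with 2683 calls, moved more: 621 with a filter on dim genes, 488 after quantile normalization, 563 with both, 317 after cyclic loess, 6086 with each array's median set to 0, 5122 with array weights, 1667 with an intensity trend and robust prior, 663 without those 3 arrays, and 25 to 4794 when each replicate was left out in turn. The cause was not tested, apart from the fewer genes and samples that these settings use. Ptpn2 reversed, to -0.57 (adjusted p = 0.137) with the mean of all probe sets and to -0.03 (adjusted p = 0.951) without array 3 labelled spleen, and was not called in either. Its values with each replicate left out in turn were -0.03 to 0.44. With a replicate block over all arrays 4435 and 2332 genes were called in the 2 tests, and with a block by transduction 4036 and 3903. Whether the numbers pair the LacZ arrays was not settled. Of the 273 named and called LacZ genes that were run 214 kept their call in every setting run. Without array 1 of Ptpn2 labelled tumor the tests gave 5136 and 2908 calls. Quantile normalization together with the filter and the fit without 3 arrays were chosen after seeing the data. Genes near the lower end are limited by the missing detection calls.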

Other observations

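Smaller gene groups, all in LacZ and as labelled tumor minus labelled spleen, filled in the contrast. Of 25 genes of the tricarboxylic acid cycle 12 fell and 0 rose (median -0.82), and of 25 genes of fatty acid oxidation 9 fell (median -0.42), with Acadl, an acyl-CoA dehydrogenase, down by 1.60 ± 0.27. Of 37 genes of actin, tubulin and motility 11 fell and 2 rose (12 and 5 after quantile normalization). Tubb6, a beta tubulin, read -0.38, -1.5 and -0.66 in arrays labelled tumor, against 4.66, 4.63 and 3.64 in arrays labelled spleen (-5.15 ± 0.31, limma adjusted p = 7.13e-14). Of 22 S100, annexin and galectin genes 10 fell and 1 rose, with Lgals3 down by 3.18 ± 0.46 and S100a4 by 2.35 ± 0.31. Of 34 chromatin genes 12 fell and 5 rose (12 and 10 after quantile normalization). The falls included Hells, a remodeller of dividing cells (-3.06 ± 0.36), and Ezh2, a histone methyltransferase (-2.21 ± 0.28).

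Purinergic genes fell in 7 of 13 cases and rose in 0, among them Entpd1, the ectoenzyme CD39, at -1.15, -1.5 and -1.54 in arrays labelled tumor, against 1.21, 0.71 and 1.18 in arrays labelled spleen (-2.43 ± 0.28). Of 8 Gimap GTPases, which lymphocytes need for survival, 3 rose and 1 fell, with Gimap6 up by 1.19 ± 0.29 and Gimap7 down by 0.90 ± 0.27. Of 8 Schlafens 2 rose and 2 fell: Slfn4 read -1.07, 0.17 and -0.38 in arrays labelled tumor, against 3.89, 4.46 and 3.56 in arrays labelled spleen (-4.39 ± 0.46). Of 27 genes of the BCL2 family and cell death 6 fell and 2 rose (7 and 5 after quantile normalization), with Bbc3, or PUMA, up by 1.87 ± 0.28 and Bak1 down by 2.06 ± 0.40. Of 14 genes of MHC class I 3 fell and 2 rose (3 and 5 after quantile normalization), and Cd1d1, which presents lipids, rose by 2.46 ± 0.30. PP2A subunits fell in 4 of 17 cases, and in 3 with 3 rises after quantile normalization. The largest of those falls on the deposited scale was Ptpa (-1.26 ± 0.31).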
